A study of Homo sapiens with 18 samples.

Results

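The transcripts of 8 transcription factors known to drive the epithelial to mesenchymal transition (EMT), SNAI1, SNAI2, ZEB1, ZEB2, TWIST1, TCF3, TCF4 and ETS1, were followed in the human lung carcinoma cell line A549. They were taken by name, each through the probe set whose only gene symbol was that of the factor, and the brightest one where there were more. All 8 of 8 were measured, among 18377 genes in all. Cells received siRNAs that target PKCiota and PKCzeta, the atypical isoforms of protein kinase C (siPKCiz), or a control siRNA (siControl), and were then deprived of serum to ask how silencing bears on the transcripts that TGFβ changes. In each arm, cells were given 250 pM TGFβ for 1 h, washed and kept in 0.2% serum until 8 h or 24 h after the start, or were left untreated. The 6 groups, namely siPKCiz untreated, at 8 h and at 24 h and siControl untreated, at 8 h and at 24 h, held 3 biological replicates each. How long the untreated cells were kept, and whether replicates were separate cultures, is not in the labels, so p-values measure only the spread between these arrays. In such bulk RNA, fewer cells that express a gene and less of its RNA per cell cannot be told apart. Whole-transcript arrays report RNA only, not the protein level, the location or the activity of a factor.

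EMT is the loss of epithelial junctions and polarity and the gain of a migratory, mesenchymal state, and TGFβ is its best studied inducer. SNAI1 (Snail) and SNAI2 (Slug) are zinc finger repressors, and ZEB1 and ZEB2 are zinc finger and homeodomain proteins. These 4 proteins bind E boxes in epithelial promoters, with that of CDH1 (E-cadherin) as the best known target. TWIST1, TCF3 (E2A, source of E12 and E47) and TCF4 (E2-2, which is not the WNT factor TCF7L2 that shares its older name) are basic helix-loop-helix proteins that also bind E boxes, as dimers that the ID proteins block. ETS1 belongs to another DNA-binding family, the ETS factors, and is known as an activator of matrix metalloproteinases and of ZEB1.

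Median intensity per array lay between 156.1 and 160.7, no array was left out, and correlations between replicates of a group lay between 0.992 and 0.998 across genes. The silencing was read first. PRKCI, which encodes PKCiota, lay between 457 and 621 in the 9 siPKCiz arrays, against 2095 to 2818 in the 9 siControl arrays. PRKCZ, which encodes PKCzeta, had 254, 153 and 153 at 8 h, 206, 189 and 152 at 24 h and 242, 142 and 162 untreated in siPKCiz cells. The siControl cells had 309, 410.2 and 410.2 at 8 h, 302, 472 and 409 at 24 h and 265, 398 and 490.0 untreated. The siPKCiz arrays were lower throughout, and in each condition the arms were closest in replicate 1. PRKCZ was lower by 1.07 ± 0.14 log2 units in siPKCiz as the mean of the 3 conditions (adjusted p = 3.43e-05), and the silencing and interaction values below include replicate 1 unless they are said to leave it out. The epithelial markers KRT8, KRT18, KRT7, EPCAM and CDH1 were above the array median in 18 of 18 arrays. The lung markers SFTPB, SFTPC, NKX2-1 and NAPSA were below it in all 18, so the lung lineage of the line was not visible in them. Markers of other cells that lay below the median in all 18 arrays were PTPRC and CD3E of leukocytes, DCN and PDGFRB of fibroblasts, and PECAM1, VWF, CDH5, KDR and TEK of endothelium. Of the rest, CD68 and THY1 were above it in 18 arrays, LUM in 14, COL3A1 in 12, CD14 in 3 and PDGFRA in 1.

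SNAI1 and SNAI2, the Snail family, moved most of the 8 factors. Both rose about 2 log2 units within 8 h of TGFβ in control cells, and both were still high at 24 h, in silenced cells too. Values are intensities on the linear scale the authors deposited, in the order of replicates 1, 2 and 3. Changes are log2 differences ± SE from limma (3 arrays per group), called at an adjusted p under 0.05 over all 18377 genes.

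SNAI1 (probe set 8063382) had 674, 543 and 586 at 8 h of TGFβ in siPKCiz cells, 621, 488 and 526 at 24 h, and 226, 234 and 247 untreated. In siControl cells it had 856, 556 and 647 at 8 h, 310.4, 566 and 481 at 24 h, and 157, 171 and 196 untreated. Every treated array was above every untreated array of its arm, and the lowest treated one was replicate 1 of siControl at 24 h. SNAI1 was above the array median in 17 of 18 arrays, and its untreated siControl values lay near that median. SNAI1 rose by 1.34 ± 0.18 at 8 h (adjusted p = 0.000149) and by 1.20 ± 0.18 at 24 h (adjusted p = 0.000166) in siPKCiz cells. The rises in siControl cells were 1.96 ± 0.18 at 8 h (3.88-fold; adjusted p = 2.45e-06) and 1.34 ± 0.18 at 24 h (2.52-fold; adjusted p = 4.89e-05). At 8 h in siControl cells it held place 14 of all genes ordered by log2 change from the highest, and at 24 h place 73. The later level in siControl was 0.62 ± 0.18 log2 units under the earlier one, a difference that did not pass (adjusted p = 0.0792). It was -0.80 and passed without replicate 2 of siControl at 24 h (adjusted p = 0.0348), and -0.37 without replicate 1 of that group, where it did not pass.

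Untreated SNAI1 lay higher in the 3 siPKCiz arrays than in the 3 siControl arrays, by 0.44 ± 0.18 (adjusted p = 0.2). This difference was 0.39 and passed without replicate 1 of every group (adjusted p = 0.0336). Ordered by mean from the lowest, the groups were siControl untreated, siPKCiz untreated, siControl at 24 h, siPKCiz at 24 h, siPKCiz at 8 h and siControl at 8 h. The first 3 were separated without overlap, and each of the last 3 overlapped its neighbour below. The rise at 8 h was 0.61 ± 0.25 log2 units smaller in siPKCiz than in siControl cells, which did not pass (adjusted p = 1; difference of the changes -0.61, with a 95% interval from -1.14 to -0.08).

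SNAI2 (probe set 8150698) had 1211, 801 and 968 at 8 h in siPKCiz cells, 1127, 1126 and 1332 at 24 h, and 241, 212 and 198 untreated. Its siControl values were 1214, 943 and 1142 at 8 h, 756, 1394 and 1156 at 24 h, and 270.5, 295 and 266 untreated. No treated array came near an untreated one in either arm. SNAI2 rose by 2.18 ± 0.18 at 8 h (4.53-fold; adjusted p = 3.52e-06) and by 2.46 ± 0.18 at 24 h (5.51-fold; adjusted p = 1.32e-07) in siPKCiz cells. In siControl cells the changes were 1.98 ± 0.18 (3.95-fold; adjusted p = 1.92e-06) and 1.95 ± 0.18 (3.85-fold; adjusted p = 1.08e-06). In siPKCiz cells only 4 genes at 8 h and 6 at 24 h had a larger log2 rise.

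Untreated SNAI2 was lower in all 3 siPKCiz arrays than in any siControl array, by 0.36 ± 0.18 (adjusted p = 0.303). This difference was -0.45 and passed without replicate 1 of every group (adjusted p = 0.0399). The order of the groups from the lowest was siPKCiz untreated, siControl untreated, siPKCiz at 8 h, siControl at 24 h, siControl at 8 h and siPKCiz at 24 h, and each of the last 4 overlapped the next. At 24 h the rise was 0.51 ± 0.25 larger in siPKCiz than in siControl cells (adjusted p = 1; 95% interval from -0.01 to 1.04), and 0.27 larger without replicate 1 of siControl at 24 h.

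**Figure D1:**
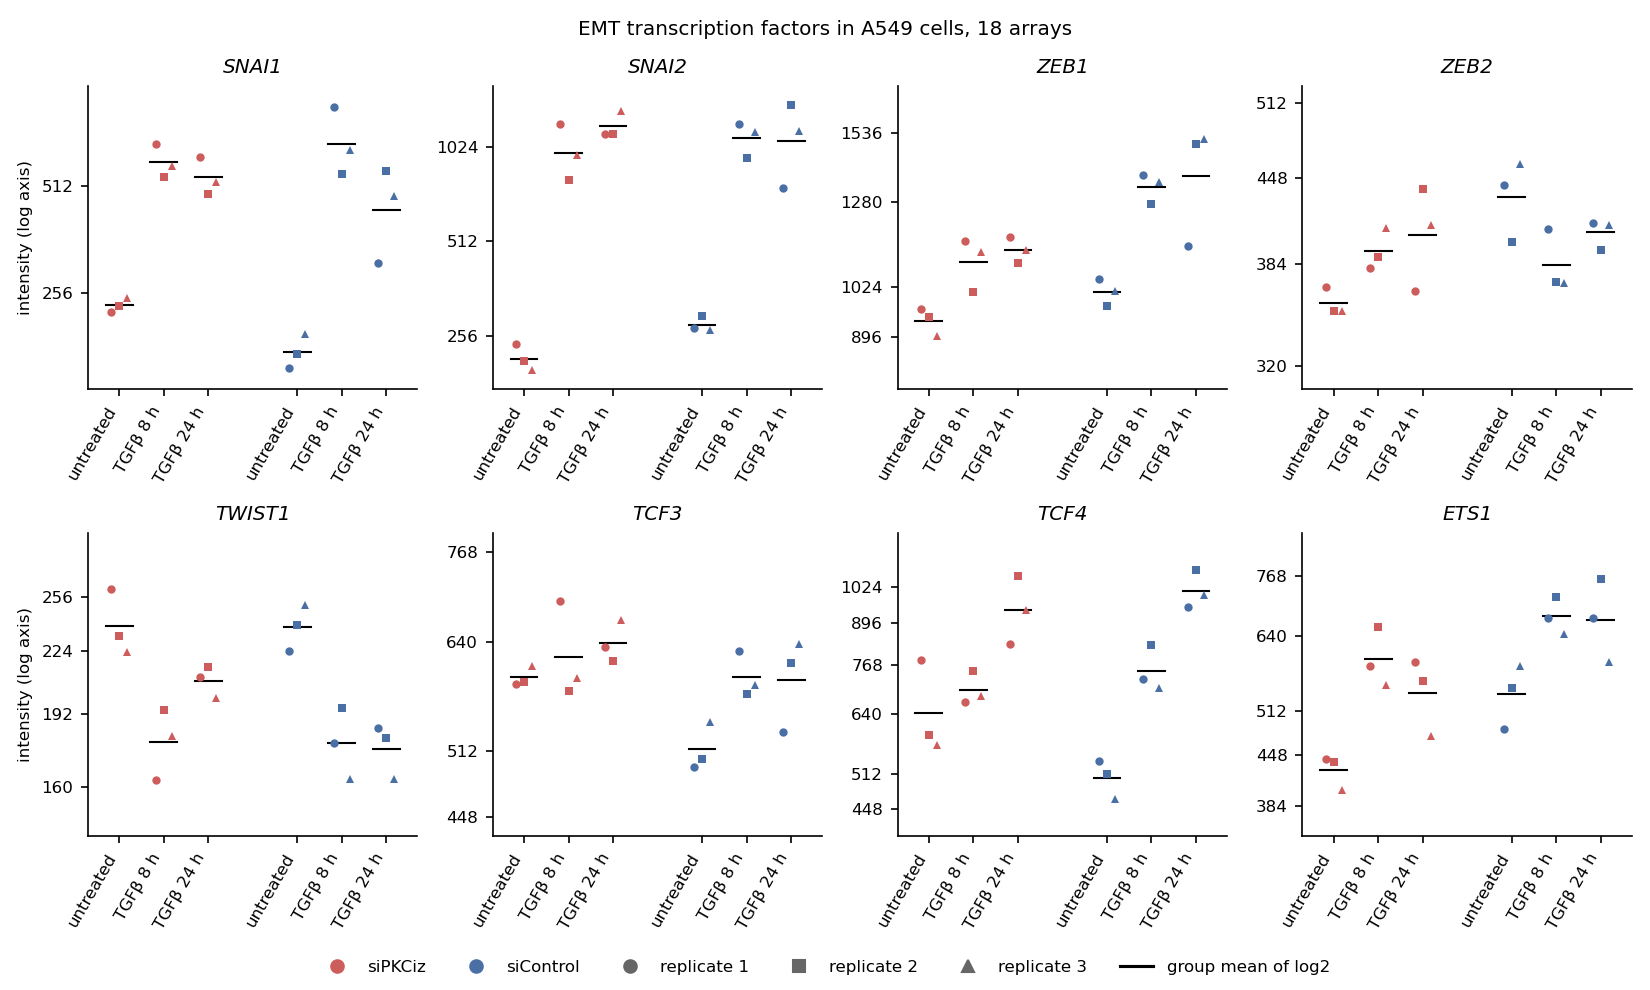
Deposited intensity (log axis) of the 8 factors on each of the 18 arrays, with siPKCiz in red and siControl in blue, replicates 1 to 3 as circles, squares and triangles, and the mean of the log2 values as a bar. SNAI1 and SNAI2 lie far above their untreated arrays at 8 h and 24 h in both arms, and TWIST1 lies below them.

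ZEB1 (probe set 7926916) had 1156, 1009 and 1122 at 8 h in siPKCiz cells, 1167, 1091 and 1128 at 24 h, and 965, 947 and 898 untreated. In siControl cells the values were 1375, 1274 and 1349 at 8 h, 1139.9, 1494 and 1513 at 24 h, and 1045, 974 and 1014 untreated. Treated and untreated arrays did not overlap in either arm, and replicate 1 of siControl at 24 h lay well under its 2 partners. ZEB1 rose by 0.40 ± 0.093 at 8 h (1.32-fold; adjusted p = 0.00777) and by 0.44 ± 0.093 at 24 h (1.36-fold; adjusted p = 0.00347) in siControl cells. In siPKCiz cells the changes were 0.22 ± 0.093 (adjusted p = 0.195) and 0.27 ± 0.093 (adjusted p = 0.0763), neither of which passed. The change at 24 h in siPKCiz passed with quantile normalization (0.32; adjusted p = 0.0424), with only the arrays of the groups compared (adjusted p = 0.0439) and without replicate 1 of siControl at 24 h (adjusted p = 0.0181). The arms' changes differed by -0.17 ± 0.13 at both times, which did not pass (adjusted p = 1 each). At 24 h this difference was -0.30 without replicate 1 of siControl at 24 h, and -0.11 and -0.10 without its replicate 2 or 3.

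ZEB2 (probe set 8055624), the relative of ZEB1, had 382, 389 and 409.6 at 8 h in siPKCiz cells, 366, 439 and 412 at 24 h, and 369, 353 and 353 untreated. The siControl values were 409, 372 and 371 at 8 h, 414, 394 and 412 at 24 h, and 442, 399.7 and 459 untreated. The groups ran into each other, apart from untreated siPKCiz, which was below all other groups but siPKCiz at 24 h. No TGFβ change of ZEB2 passed: the values were 0.13 ± 0.079 at 8 h and 0.18 ± 0.079 at 24 h in siPKCiz cells, and -0.18 ± 0.079 and -0.09 ± 0.079 in siControl cells. With quantile normalization the change at 24 h in siPKCiz was 0.24 and passed (adjusted p = 0.0406), and without replicate 2 of that group it was 0.12. The arms differed by 0.31 ± 0.11 in their change at 8 h and by 0.27 ± 0.11 at 24 h (adjusted p = 1 each). Both of these values use the same untreated arrays, where siPKCiz minus siControl was -0.27 ± 0.079 (adjusted p = 0.0627). With TGFβ that difference in level was 0.04 ± 0.079 at 8 h and -0.01 ± 0.079 at 24 h. Another ZEB2 probe set, 8055639, was dim, from 66.6 to 126 and so under the array medians. It gave another picture, with a rise of 0.53 ± 0.11 at 24 h in siPKCiz cells (adjusted p = 0.00342 with every single-symbol probe set tested) and -0.02 ± 0.11 in siControl cells. At 24 h it was 0.52 ± 0.11 higher in siPKCiz than in siControl (adjusted p = 0.0137). The 2 probe sets thus disagree, and the ZEB2 result depends on which is read.

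Of the 8 factors, SNAI1, SNAI2, TWIST1 and ETS1 are named without a promoter window here, and RefSeq windows from 250 bases before to 50 after a start site (GRCh38.p14) were matched for ZEB1, ZEB2, TCF3 and TCF4, 19 windows in all. They were searched on both strands for the E2 box CAGGTG, the E box form that Snail and ZEB proteins are known to bind. It was present in 2 of the 19 windows, both of ZEB1, against 20.6% of all 35116 windows in the table. The SMAD palindrome GTCTAGAC was in none of the 19, against 0.202% of all windows. At so low a share, its absence from 19 windows says nothing about the factors. Most of the 19 belong to TCF4 and ZEB1, which have several start sites each, so neither count stands for the 8 factors. The ZEB1 window with 3 E2 boxes is printed with the boxes in capitals, since no other window of the factors held more than 1. They start at 242 and 85 bases before the start site (written -242 and -85) and at 33 after it. A match says only that these letters stand there.
ZEB1 chr10:31318966-31319265 (+): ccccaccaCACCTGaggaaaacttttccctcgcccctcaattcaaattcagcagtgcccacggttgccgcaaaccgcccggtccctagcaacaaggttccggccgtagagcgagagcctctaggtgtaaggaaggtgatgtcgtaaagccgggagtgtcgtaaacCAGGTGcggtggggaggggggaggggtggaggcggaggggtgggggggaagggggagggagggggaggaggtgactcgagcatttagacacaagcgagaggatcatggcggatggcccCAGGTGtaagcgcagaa

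TWIST1, TCF3 and TCF4, the basic helix-loop-helix members, did not move together. TWIST1 went down with TGFβ, TCF4 went up, and no change of TCF3 passed.

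TWIST1 (probe set 8138442) had 163, 194 and 181 at 8 h in siPKCiz cells, 210.2, 215 and 199 at 24 h, and 261, 233 and 223 untreated. In siControl cells it had 178, 195 and 163 at 8 h, 185, 181 and 163 at 24 h, and 224, 239 and 251 untreated. All treated arrays were below all untreated ones within each arm, and TWIST1 was the one factor that a filter on dim probe sets removed. TWIST1 fell by 0.41 ± 0.089 at 8 h in siPKCiz cells (adjusted p = 0.00705) and its change at 24 h was -0.20 ± 0.089 (adjusted p = 0.19). In siControl cells it fell by 0.42 ± 0.089 at 8 h (1.33-fold lower; adjusted p = 0.00412) and by 0.43 ± 0.089 at 24 h (1.35-fold lower; adjusted p = 0.00273). The call at 8 h in siPKCiz was lost, at adjusted p = 0.054 and 0.0541, without replicate 1 of siPKCiz untreated or at 8 h. At 24 h the 3 siPKCiz arrays were above the 3 siControl arrays, by 0.24 ± 0.089 (adjusted p = 0.171), a separation that 8.73% of all genes showed upwards and 9.08% downwards.

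TCF4 (probe set 8023415) had 669, 749 and 682 at 8 h in siPKCiz cells, 829, 1066 and 941 at 24 h, and 782, 591 and 569.5 untreated. The siControl values were 727, 827 and 705 at 8 h, 953, 1091 and 994 at 24 h, and 537, 511 and 466 untreated. At 24 h both arms were above their untreated arrays, while at 8 h siPKCiz overlapped its own, where replicate 1 was the highest. TCF4 rose by 0.55 ± 0.12 at 24 h in siPKCiz cells (1.47-fold; adjusted p = 0.00365), and its change at 8 h was 0.13 ± 0.12 (adjusted p = 0.662). This value was 0.27 without replicate 1 of untreated siPKCiz, 0.07 and 0.04 without its replicate 2 or 3, and 0.08 without replicate 2 of siPKCiz at 8 h. In siControl cells it rose by 0.58 ± 0.12 at 8 h (1.49-fold; adjusted p = 0.0025) and by 1.00 ± 0.12 at 24 h (2.01-fold; adjusted p = 1.08e-05). It was the only one of the 8 whose 24 h arrays were above its 8 h arrays without overlap in both arms, with 0.43 ± 0.12 in siPKCiz (adjusted p = 0.0977) and 0.43 ± 0.12 in siControl (adjusted p = 0.0597). Of all genes 7.84% in siPKCiz and 7.3% in siControl were higher at 24 h without overlap, and 10.5% and 8.29% were lower. Neither difference passed, and both did without replicate 1 of siPKCiz untreated (adjusted p = 0.0483 and 0.0273), which enters only through the shared estimate of spread; in siControl the call was also made without replicate 1 of siPKCiz at 24 h (adjusted p = 0.0456). Compared with siControl, the change in siPKCiz cells was 0.45 ± 0.16 smaller at each time (adjusted p = 1 each). Both of these values use the same untreated arrays, so they are not separate observations. The level of TCF4 in siPKCiz minus that in siControl was 0.35 ± 0.12 untreated (adjusted p = 0.112). It was -0.10 ± 0.12 at 8 h and -0.10 ± 0.12 at 24 h.

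TCF3 (probe set 8032290) had 695, 579 and 595 at 8 h in siPKCiz cells, 633, 615 and 669.5 at 24 h, and 588, 589.8 and 609.9 untreated. In siControl cells it had 628, 575 and 586 at 8 h, 532, 613 and 637 at 24 h, and 496, 504 and 544 untreated. The highest group mean, that of siPKCiz at 24 h, was 0.31 log2 units above the lowest, that of untreated siControl. Its TGFβ changes were 0.06 ± 0.085 and 0.10 ± 0.085 in siPKCiz cells at 8 h and 24 h, and 0.21 ± 0.085 (adjusted p = 0.125) and 0.20 ± 0.085 (adjusted p = 0.14) in siControl cells. Without replicate 1 of siControl at 24 h, its lowest array there, the change at 24 h in siControl was 0.28 and passed (adjusted p = 0.0423).

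ETS1 (probe set 7952601) had 585, 659 and 554 at 8 h in siPKCiz cells, 593, 561 and 474 at 24 h, and 443, 439 and 404 untreated. In siControl cells the values were 676, 721 and 646 at 8 h, 676, 761 and 593 at 24 h, and 484, 548 and 585 untreated. Treated arrays were above untreated ones in both arms, by a narrow margin in siControl at 24 h. ETS1 rose by 0.48 ± 0.11 at 8 h (1.40-fold; adjusted p = 0.00799) and by 0.34 ± 0.11 at 24 h (adjusted p = 0.049) in siPKCiz cells. In siControl cells it rose by 0.34 ± 0.11 at 8 h (adjusted p = 0.0442), and its change at 24 h was 0.32 ± 0.11 (adjusted p = 0.0526). Of these 4 values 3 sit at the threshold. The rise at 8 h in siControl was lost without replicate 1 or 2 of untreated siControl, replicate 2 of siPKCiz at 24 h, or any one array of siControl at 8 h or of untreated siPKCiz (adjusted p from 0.0508 to 0.187). That at 24 h in siPKCiz was lost when any one of 12 of the 18 arrays was left out (adjusted p from 0.052 to 0.224). The change at 24 h in siControl passed without replicate 3 of that group or of untreated siControl, or without replicate 1 or 3 of siPKCiz at 24 h (adjusted p from 0.026 to 0.048). The rise at 8 h in siPKCiz was lost without replicate 2 of its own group alone among single arrays (adjusted p = 0.0506).

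**Figure D2:**
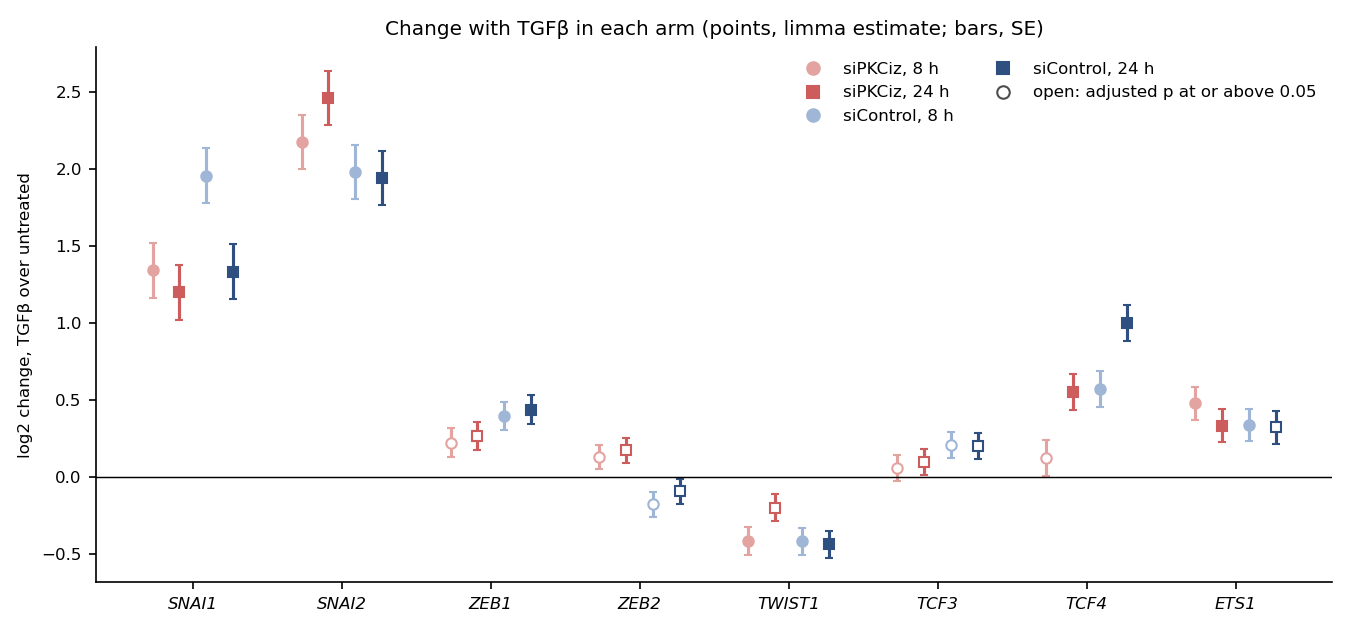
Log2 change with TGFβ over untreated cells for each factor (points, limma estimate; bars, SE), at 8 h and 24 h in siPKCiz (reds) and siControl (blues); filled points passed an adjusted p under 0.05 over all genes. SNAI1 and SNAI2 stand above 1 in both arms, TCF4 reached 1.00 in siControl at 24 h, and TWIST1 is below 0.

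In counts, 3 of the 8 factors rose and 1 fell at 8 h in siPKCiz cells, where 6.48% of all genes were called in either direction (3.13% higher and 3.35% lower). At 24 h in siPKCiz cells 4 rose and 0 fell, against 10.7% of all genes called (4.65% higher and 6.09% lower). In siControl cells 5 rose and 1 fell at 8 h, against 11.4% of all genes (5.17% higher and 6.18% lower), and 4 rose and 1 fell at 24 h, against 12.3% (5.85% higher and 6.46% lower). The median log2 change of the 8 was 0.18 at 8 h and 0.30 at 24 h in siPKCiz cells, and 0.37 and 0.38 in siControl cells, while that of all genes was within 0.01 of 0 in each. Between 24 h and 8 h no factor was called in either arm, against 0.805% of all genes in siPKCiz (0.386% higher and 0.419% lower) and 2.41% in siControl (1.31% higher and 1.1% lower). In each arm 2 factors had an unadjusted limma p under 0.05 there, namely TWIST1 and TCF4 in siPKCiz and SNAI1 and TCF4 in siControl, against 12.2% of all genes in siPKCiz and 13.6% in siControl. The calls of ZEB1 and TWIST1 in siControl, of TCF4 at 8 h in siControl and of TCF4 at 24 h in siPKCiz were lost without replicate 2 or without replicate 3 of every group, which leaves 2 arrays a group (adjusted p from 0.0551 to 0.175). TWIST1 at 8 h in siPKCiz was lost without replicate 1, 2 or 3 of every group (adjusted p = 0.135, 0.0659 and 0.061). So was ETS1 at 24 h in siPKCiz (adjusted p = 0.178, 0.234 and 0.0792). At 8 h ETS1 was lost in siPKCiz without replicate 2 (adjusted p = 0.161), and in siControl without replicate 1 or 2 (adjusted p = 0.168 and 0.297).

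The silencing itself was then compared at each condition. No factor was called between siPKCiz and siControl in untreated cells, where 3.58% of all genes were called (2.12% higher and 1.45% lower), at 8 h (5.41%, with 3.52% higher and 1.9% lower) or at 24 h (3.19%, with 1.51% higher and 1.68% lower). At an unadjusted limma p under 0.05 there were 5 of 8 factors in untreated cells, 1 at 8 h and 3 at 24 h, against 17.4%, 21.3% and 15.6% of all genes. The genes called, 657, 995 and 587, came to 240 to 335, 363 to 379 and 195 to 266 when replicate 2 or 3 of either group compared was left out. In untreated cells the arms' arrays did not overlap for 7 of the 8 factors, with TWIST1 as the exception, against 13.7% of all genes higher and 10.4% lower without overlap. SNAI1, TCF3 and TCF4 were the 3 on the higher side in siPKCiz and SNAI2, ZEB1, ZEB2 and ETS1 the 4 on the lower side.

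ZEB1 and ETS1 had a negative difference in each of the 3 conditions, so the mean of the 3 conditions was added as a comparison after these values were seen. It was thus chosen on the values that it then tests. TCF3 and TWIST1 had a positive difference in each condition. Their means, 0.13 ± 0.049 (adjusted p = 0.0748) and 0.08 ± 0.052 (adjusted p = 0.273), did not pass. ZEB1 differed by -0.11 ± 0.093 in untreated cells, by -0.28 ± 0.093 at 8 h (adjusted p = 0.0833) and by -0.28 ± 0.093 at 24 h (adjusted p = 0.121). Its mean was lower in siPKCiz by 0.23 ± 0.054 (1.17-fold lower; adjusted p = 0.00609). ETS1 differed by -0.33 ± 0.11 (adjusted p = 0.0985), -0.19 ± 0.11 (adjusted p = 0.324) and -0.32 ± 0.11 (adjusted p = 0.122), and its mean was lower by 0.28 ± 0.061 (1.21-fold lower; adjusted p = 0.00335). These 2 of 8 stand beside 19.9% of all genes called in this comparison (8.17% lower), which has more arrays behind it. Without replicate 1 of siControl at 24 h, ZEB1 passed at 8 h and at 24 h alone (adjusted p = 0.0241 and 0.00602, with -0.41 at 24 h). Without replicate 2 or without replicate 3 of every group, neither mean passed (adjusted p up to 0.186 for ZEB1 and 0.0821 for ETS1).

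**Figure D3:**
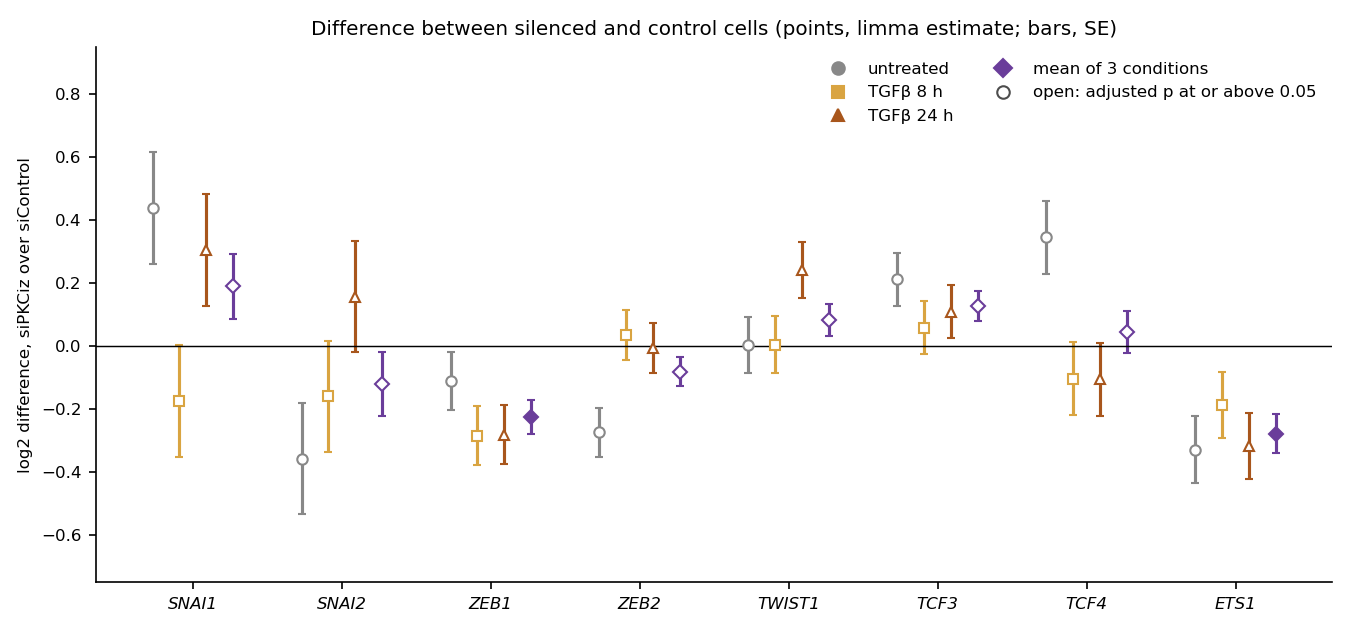
Log2 difference of siPKCiz over siControl for each factor (points, limma estimate; bars, SE) untreated, at 8 h, at 24 h and as the mean of the 3 conditions; filled points passed. The filled points are the means of ZEB1, -0.23, and ETS1, -0.28.

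Whether silencing changed the response to TGFβ was tested as the difference between the arms' changes. No factor and 0 of all 18377 genes were called at 8 h or 24 h by limma, while 625 genes (3.4%) and 705 (3.84%) had an unadjusted p under 0.05. Among the factors these were SNAI1, ZEB2 and TCF4 at 8 h and ZEB2 and TCF4 at 24 h, with the values given above. Without replicate 1 of every group 58 genes at 8 h and 80 at 24 h were called, none of them a factor, and 3 at 24 h without replicate 1 of siControl at 24 h alone; a fit of only the groups compared called 2 at 8 h. A factor called in one arm and not in the other, such as ZEB1, is therefore not shown to respond differently.

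Among the 8, SNAI1, SNAI2 and TCF4 had group means that spanned at least 1 log2 unit, and their profiles over the 18 arrays were set against the 647 other genes with such a span. Since the arrays come from 6 shared groups, these correlations are descriptions of shared group differences. SNAI1 was most like ULK1 (Pearson r = 0.972), OLFM2 (0.965) and TUFT1 (0.963). SNAI2 was most like PLEK2 (0.980), PMEPA1 (0.967), a TGFβ-induced feedback inhibitor of SMAD signalling, and GRB10 (0.966), an adaptor of receptor tyrosine kinases. TCF4 was most like FBXL21P (0.896), the sulfatase SULF2 (0.893) and the growth factor PDGFC (0.875). SNAI1 and SNAI2 had r = 0.910 with each other, at place 29 among the profiles most like SNAI1.

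Other genes of the network were read from lists of known members. Of 20 other EMT-inducing factors 16 were measured, and the same shares of all genes as above apply: 1 rose at each time in siPKCiz cells, while in siControl cells 1 rose and 1 fell at 8 h and 2 rose at 24 h. ETS2, an ETS factor related to ETS1, was the one that rose each time, by 0.82 and 0.77 in siPKCiz cells at 8 h and 24 h and by 1.24 and 0.90 in siControl cells (adjusted p of 0.00315 or less). SOX9 fell by 0.47 at 8 h in siControl (adjusted p = 0.00344) and SOX4 rose by 0.38 at 24 h (adjusted p = 0.0277). FOXQ1 and ZNF281 were higher in siPKCiz as the mean of the conditions, by 0.17 and 0.13 (adjusted p = 0.0375 and 0.0439). These 2 of 16, with 0 lower, stand beside 11.8% of all genes called higher in that comparison and 8.17% lower.

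ID proteins lack a DNA-binding region and hold TCF3, TCF4 and TWIST1 away from E boxes. All 4 were measured. ID3 rose in siPKCiz cells, by 0.31 at 8 h (adjusted p = 0.0308) and 0.37 at 24 h (adjusted p = 0.00572), as the only one called there. In siControl cells ID1 rose by 0.76 at 8 h (adjusted p = 0.00687), and ID2 fell by 0.74 at 8 h (adjusted p = 0.0102) and by 0.78 at 24 h (adjusted p = 0.00629). Of all genes, 6.48% and 10.7% were called at 8 h and 24 h in siPKCiz cells, and 11.4% and 12.3% in siControl cells. None of the 4 was called for a difference between the arms' changes at either time. An ID gene called in only one arm is therefore not shown to respond differently.

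Factors that uphold the epithelial state and oppose EMT mostly fell where they changed. Of 14 measured, 0 rose and 4 fell at 8 h in siPKCiz cells and 0 rose and 7 fell at 24 h. In siControl cells 1 rose and 6 fell at 8 h and 0 rose and 6 fell at 24 h. Of all genes, 3.13% and 4.65% rose and 3.35% and 6.09% fell in siPKCiz cells at 8 h and 24 h. In siControl cells 5.17% and 5.85% of all genes rose and 6.18% and 6.46% fell. GRHL3, a grainyhead factor, fell by 0.77 and 1.01 in siPKCiz cells and by 1.23 and 1.37 in siControl cells (adjusted p of 0.000149 or less). EHF, an epithelial ETS factor, fell by 1.51 and 1.52 in siPKCiz and by 1.48 and 1.40 in siControl cells. ELF3, also an epithelial ETS factor, fell by 0.94 at 24 h in siPKCiz and by 1.12 in siControl cells, and TFAP2A by 0.75 and 0.69. As the mean of the 3 conditions, 5 of these 14 were higher in siPKCiz and 0 lower, against 11.8% and 8.17% of all genes. Among the 5 were ELF3 at 0.54 ± 0.089 and the Krüppel-like factors KLF5 at 0.48 ± 0.062 and KLF4 at 0.40. FOXA1, a forkhead factor, fell by 0.52 at 24 h in siPKCiz cells (adjusted p = 0.00161), with -0.27 in siControl cells (adjusted p = 0.0869). The medians of the list were -0.31 and -0.23 at 24 h in siPKCiz and siControl cells, against -0.01 for all genes in each.

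Corepressors and partners of the Snail and ZEB proteins (16 measured) were called with TGFβ as follows, against 6.48% and 10.7% of all genes in siPKCiz and 11.4% and 12.3% in siControl: 1 rose and 0 fell at 8 h and 1 rose and 1 fell at 24 h in siPKCiz, and 1 rose and 2 fell at 8 h and 0 rose and 1 fell at 24 h in siControl. LOXL2, a lysyl oxidase-like protein that binds SNAI1, rose by 0.40 and 0.43 in siPKCiz cells, and AJUBA, a LIM protein of cell junctions and a SNAI1 corepressor, fell by 0.52 and 0.56 in siControl cells. EHMT2, a histone methyltransferase, fell by 0.48 at 8 h in siControl, and PRMT5, an arginine methyltransferase, by 0.28 at 24 h in siPKCiz. None of the 16 was called for a difference between the arms' changes, so these calls in one arm do not show that the arms differ. Untreated LOXL2 was lower in siPKCiz than in siControl cells, by 0.32 ± 0.085 (adjusted p = 0.0464). As the mean of the conditions 6 of the 16 were higher in siPKCiz and 2 lower, against 11.8% and 8.17% of all genes, with AJUBA at 0.54 (adjusted p = 7.16e-05), and at 0.69 at 8 h alone. RCOR1, the CoREST subunit that links SNAI1 to the demethylase KDM1A, was higher in siPKCiz in each condition, with 0.38 ± 0.045 as the mean (adjusted p = 1.2e-05). Of 11 measured genes that control the stability of Snail proteins, none was called with TGFβ in siControl, none at 8 h in siPKCiz and 1, the phosphatase CTDSP1, at 24 h there (-0.28; adjusted p = 0.0412). BTRC, the F-box protein that marks phosphorylated SNAI1 for degradation, was lower in siPKCiz, by 0.59 untreated, 0.55 at 8 h and 0.64 at 24 h (adjusted p of 0.000337 or less). Beside it, USP27X, a deubiquitinase of SNAI1, was lower by 0.63 as the mean of the 3 conditions (adjusted p = 0.000187). In that mean 3 of the 11 were lower, these with COPS2 (-0.18), and 3 higher, namely FBXO11 (0.19), FBXW7 (0.26) and SIAH1 (0.21), against 8.17% and 11.8% of all genes; these 4, chosen after their values were seen, are ubiquitin ligase genes and, for COPS2, a COP9 signalosome subunit.

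The microRNAs of the miR-200 family bind the messages of ZEB1 and ZEB2 through their seed (bases 2 to 8, in capitals), and in turn their genes are ZEB targets. They are printed because the family falls into 2 seed groups, the first 3 with the seed AAUACUG and the other two with AACACUG (RefSeq, GRCh38.p14).
hsa-miR-200b-3p: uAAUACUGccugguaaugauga
hsa-miR-200c-3p: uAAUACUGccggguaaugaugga
hsa-miR-429: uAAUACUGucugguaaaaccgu
hsa-miR-200a-3p: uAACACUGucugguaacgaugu
hsa-miR-141-3p: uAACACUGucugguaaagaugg
The array carries probe sets for the hairpin genes, and mature microRNAs were not measured. All 7 hairpins measured, those of the 5 above with MIR203A and MIR34A, were below the array median in 18 of 18 arrays, and none was called in any comparison.

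**Figure D4:**
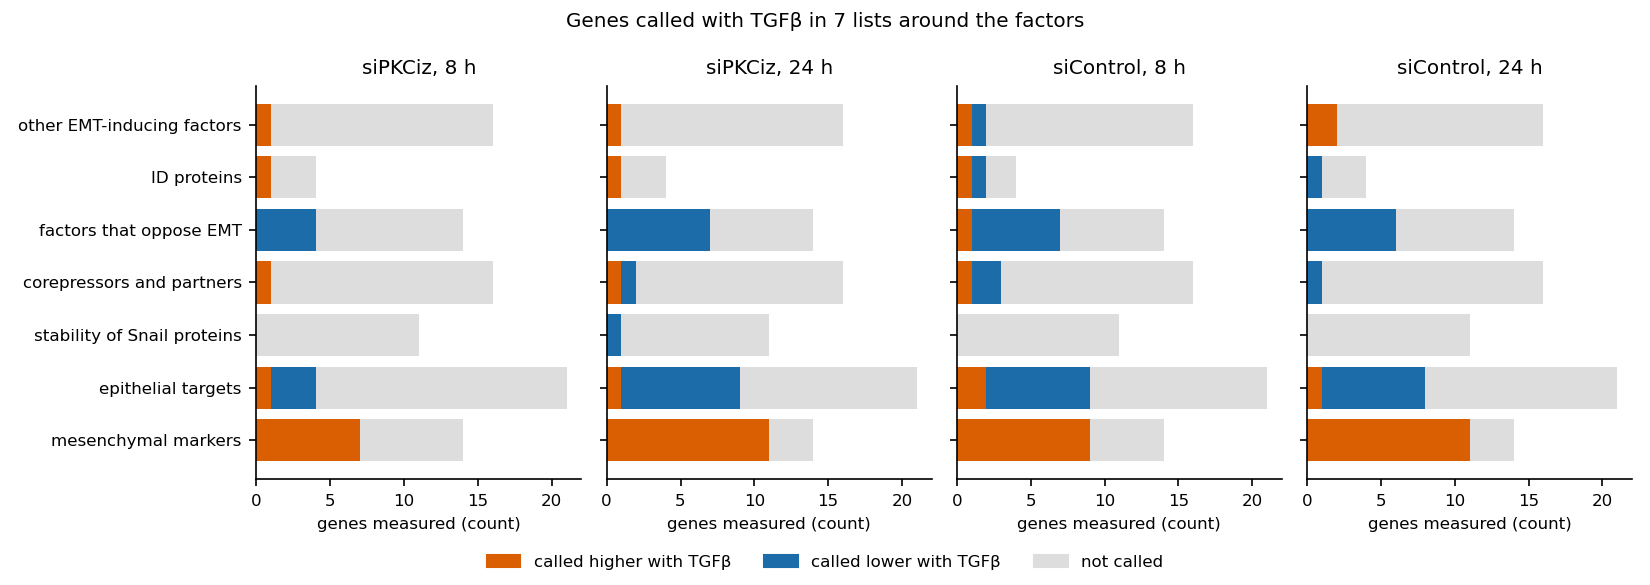
Number of measured genes called higher (orange), called lower (blue) or not called (grey) with TGFβ in 7 lists, at 8 h and 24 h in siPKCiz and siControl cells. Mesenchymal markers were called higher and never lower, and the factors that oppose EMT were mostly called lower.

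Reported epithelial targets of the factors came next. CDH1 (E-cadherin) had 469, 483 and 503 at 8 h in siPKCiz cells, 218, 404 and 373 at 24 h, and 930.5, 851 and 719.7 untreated. The siControl values were 364, 312 and 337 at 8 h, 228, 228 and 185 at 24 h, and 765, 607 and 605 untreated. Both arms dropped in steps, and replicate 1 of siPKCiz at 24 h was in the range of the siControl arrays. CDH1 fell by 0.77 ± 0.17 and 1.37 ± 0.17 at 8 h and 24 h in siPKCiz cells, and by 0.96 ± 0.17 and 1.62 ± 0.17 in siControl cells (adjusted p of 0.00806 or less). It was 0.49 ± 0.098 higher in siPKCiz as the mean of the 3 conditions (adjusted p = 0.00177), and the fall did not differ between the arms beyond the error (0.18 ± 0.24 at 8 h and 0.25 ± 0.24 at 24 h; adjusted p = 1 each).

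Of 24 such targets 21 were measured. At 8 h and 24 h, 1 and 1 rose while 3 and 8 fell in siPKCiz cells, and 2 and 1 rose while 7 and 7 fell in siControl cells. Of all genes, 3.13% and 4.65% rose and 3.35% and 6.09% fell in siPKCiz cells. In siControl cells 5.17% and 5.85% of all genes rose and 6.18% and 6.46% fell. LLGL2, a polarity protein, fell by 0.88 at 24 h in siPKCiz and by 0.79 in siControl cells. EPCAM, an epithelial adhesion molecule, fell by 1.23 at 24 h in siControl (adjusted p = 0.00473), with -0.54 ± 0.27 in siPKCiz (adjusted p = 0.242), and was 0.76 ± 0.16 higher in siPKCiz as the mean of the 3 conditions (adjusted p = 0.0022). CLDN4, a tight junction claudin, went the other way and rose by 1.01 and 0.98 in siPKCiz and by 1.54 and 1.25 in siControl cells. In that mean of the conditions 9 of the 21 were higher in siPKCiz and 1 lower, against 11.8% and 8.17% of all genes. Among them the desmosomal genes DSP and PKP2 were higher by 0.38 and 0.36, and MARVELD2, a protein of tricellular junctions, by 0.42 (adjusted p of 0.00028 or less). PKP2 also fell with TGFβ at 24 h, by 0.61 in siPKCiz and 0.57 in siControl cells.

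Promoter windows were matched for 13 of the 24 targets, and the E2 box stood in those of 10, or in 12 of 18 windows, against 20.6% of all windows. The list was drawn from reported targets, so this share is no independent finding. Of 9 measured targets with it 2 fell and 0 rose at 24 h in siControl cells, and of 3 without it 1 fell and 1 rose. Among the measured factors that oppose EMT, 2 of 4 with the box and 3 of 5 without it fell. The windows of 3 genes, picked after their values were seen, are printed with E2 boxes in capitals, as genes with several boxes that did and did not change. PTPN6, a tyrosine phosphatase, has 3 boxes and fell by 0.53 at 24 h in siPKCiz cells and by 0.73 in siControl cells (adjusted p = 0.00498 and 0.000285). GRHL3 has 2, at -21 and 9, and fell as above. CRB3, a polarity protein and known Snail target, has 5, and its changes of -0.11 and -0.12 did not pass (adjusted p = 0.376 and 0.302).
PTPN6 chr12:6946327-6946626 (+): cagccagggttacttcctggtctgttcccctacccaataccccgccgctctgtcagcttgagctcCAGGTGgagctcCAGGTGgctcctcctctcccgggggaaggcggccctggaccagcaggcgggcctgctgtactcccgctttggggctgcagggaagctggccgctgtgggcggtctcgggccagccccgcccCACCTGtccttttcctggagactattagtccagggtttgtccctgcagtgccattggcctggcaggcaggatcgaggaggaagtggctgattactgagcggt
GRHL3 chr1:24319107-24319406 (+): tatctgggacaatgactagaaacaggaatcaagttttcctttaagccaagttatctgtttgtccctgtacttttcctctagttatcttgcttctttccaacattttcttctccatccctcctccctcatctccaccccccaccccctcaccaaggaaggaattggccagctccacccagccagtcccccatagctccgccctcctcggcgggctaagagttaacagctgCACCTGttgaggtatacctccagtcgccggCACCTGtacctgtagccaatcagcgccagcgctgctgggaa
CRB3 chr19:6464021-6464320 (+): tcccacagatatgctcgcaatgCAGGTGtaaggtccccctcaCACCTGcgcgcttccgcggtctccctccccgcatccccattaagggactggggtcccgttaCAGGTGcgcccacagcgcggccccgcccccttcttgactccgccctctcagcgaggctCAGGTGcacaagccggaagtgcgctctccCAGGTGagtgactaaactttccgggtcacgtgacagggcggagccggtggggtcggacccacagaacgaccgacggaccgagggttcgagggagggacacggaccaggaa

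Mesenchymal markers rose where they were called. Of 14 measured, 7 rose at 8 h and 11 at 24 h in siPKCiz cells and 9 and 11 in siControl cells, and 0 fell in any of the 4. Of all genes, 3.13% and 4.65% rose and 3.35% and 6.09% fell in siPKCiz cells. In siControl cells 5.17% and 5.85% of all genes rose and 6.18% and 6.46% fell. CDH2 (N-cadherin) rose by 0.41 ± 0.072 and 0.66 ± 0.072 at 8 h and 24 h in siPKCiz cells and by 0.37 ± 0.072 and 0.65 ± 0.072 in siControl cells (adjusted p of 0.00207 or less). VIM (vimentin) rose by 0.39 ± 0.11 and 0.41 ± 0.11 in siPKCiz and by 0.50 ± 0.11 and 0.62 ± 0.11 in siControl cells. MMP2, a matrix metalloproteinase, rose by 2.68 at 24 h in siPKCiz and 2.89 in siControl cells, and the actin-binding TAGLN by 1.99 and 2.22. At 24 h, in siPKCiz and then siControl cells, SPOCK1, a matrix proteoglycan, rose by 1.54 and 1.57, COL1A1, a collagen I chain, by 1.46 and 1.19, MMP9 by 0.48 and 1.14, and CALD1, caldesmon, by 0.61 and 0.80. No TGFβ change of FN1 (fibronectin) passed, with 0.18 ± 0.13 at 24 h in siPKCiz and 0.39 ± 0.13 in siControl cells (adjusted p = 0.437 and 0.0622). With silencing, the mean over conditions was higher for 1 marker, CALD1 (0.18), and lower for 4, against 11.8% and 8.17% of all genes. The 4 were SPARC (-0.51; adjusted p = 0.000677), MMP2 (-0.60; adjusted p = 0.00898), MMP9 (-0.48; adjusted p = 0.000197) and TAGLN (-0.39; adjusted p = 0.0139). Markers of fibroblasts moved beside these: LUM rose by 0.84 at 24 h in siPKCiz and 1.28 in siControl cells, PDGFRA rose by 0.67 at 24 h in siPKCiz, and the other 4 fibroblast genes were not called with TGFβ. As the mean of the conditions THY1 was lower in siPKCiz by 0.65 (adjusted p = 2.95e-05) and LUM higher by 0.55 (adjusted p = 7.91e-05). Of the leukocyte genes CD14 alone was called, and fell each time (by 0.60 and 0.56 in siPKCiz, by 0.66 and 0.66 in siControl), and of the endothelial genes TEK alone, which rose in all but siPKCiz at 8 h. The summed intensity of the 6 fibroblast genes was 836 to 966 at 8 h, 1184 to 1301 at 24 h and 850.5 to 967 untreated in siPKCiz. In siControl it was 891 to 981 at 8 h, 1204 to 1244 at 24 h and 966 to 1096 untreated. DCN and PDGFRB were below the array median throughout, and the part of other cells in these changes was not tested.

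**Figure D5:**
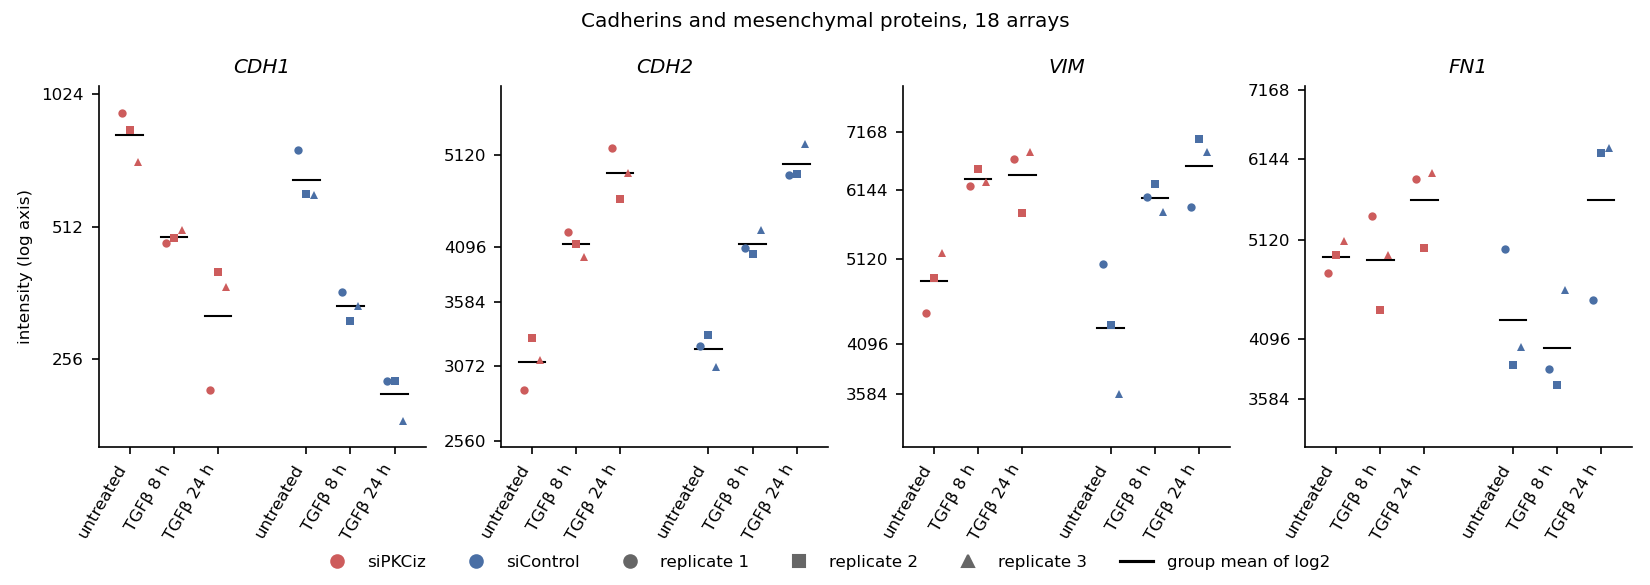
Deposited intensity (log axis) of CDH1, CDH2, VIM and FN1 on each of the 18 arrays, with siPKCiz in red and siControl in blue and the mean of the log2 values as a bar. CDH1 drops to between 185 and 404 at 24 h while CDH2 climbs to between 4602 and 5260.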

How the data were processed

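The deposited values are intensities that the authors made with RMA and Partek, per the submitters' processing notes (versions not given in the sources used here), on a linear scale from 21.2 to 51230. The plan of the tests had assumed log2 values, so log2 was taken once. Of 28869 probe sets 19310 carried 1 symbol, and the brightest per gene gave 18377 genes. A limma model (version 3.58.1, R 4.3.3) gave every gene a mean for each of the 6 groups, with 12 residual degrees of freedom (18.1 in all) and Benjamini-Hochberg adjustment over all genes. Every ± is a standard error; 3 arrays per group limit the precision. The 11 comparisons were each TGFβ time against untreated, 24 h against 8 h, siPKCiz against siControl in each condition, and the interactions; the mean of the conditions was added. Members and gene lists were chosen with earlier results of these data known. Always named were the factors, PRKCI, PRKCZ, CDH1, CDH2, VIM and FN1. Of each list, up to 4 called genes with the largest change at 24 h in siControl and up to 2 in each other comparison were named; PTPN6, CRB3, COPS2, FBXO11, FBXW7 and SIAH1 lie outside this rule and were chosen after their values were seen, and cell type markers are given by level. Deviations of arrays with the same replicate number correlated between -0.51 and 0.26, so the numbers were not taken as pairs. The fit was tested on simulated data.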

Additional observations from a re-analysis of the deposited data

How the results depend on the processing

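The number of the 8 factors called was recounted under 28 other fits, and under a call rule with a 1.5-fold threshold added. Leaving out arrays, 1 at a time or 1 replicate number in all groups, gave 2 to 4 at 8 h and 2 to 4 at 24 h in siPKCiz, and 2 to 6 at 8 h and 3 to 6 at 24 h in siControl. It gave 0 to 1 between 24 h and 8 h in either arm, 0 to 3 for silencing in untreated cells, 0 to 1 at 8 h and at 24 h, and 0 to 3 for the mean of the conditions. A call that also asks for a 1.5-fold change left 2 at 8 h and 2 at 24 h in siPKCiz, 2 at 8 h and 3 at 24 h in siControl, and 0 for the mean of the conditions. For silencing in untreated cells, quantile normalization called 2 (ZEB2 and ETS1), a filter on dim probe sets 1 and a fit of only the arrays compared 1. The dim filter called 1, TCF4, between 24 h and 8 h in siControl. No interaction of the 8 factors was called under any setting. With the replicate block 4 and 4 factors were called in siPKCiz and 6 and 6 in siControl at 8 h and 24 h, and 971, 1637, 1734 and 1914 genes in all, against 1191, 1974, 2087 and 2262 without the block. The labels do not say whether the replicate numbers pair the arrays, and the main fit did not take them as pairs. ETS1 at 24 h in siControl passed with the block (adjusted p = 0.0404).

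Genes called in all fell to 357, 813, 681 and 761 without replicate 2 and to 323, 780, 802 and 755 without replicate 3 (siPKCiz at 8 h and 24 h, then siControl at 8 h and 24 h), where fewer arrays enter. Without replicate 1 they were 1123, 1737, 2917 and 2872. The silencing counts of 657 untreated, 995 at 8 h, 587 at 24 h and 3664 for the mean became 1513, 3486, 2078 and 5774 without replicate 1, and those of the single conditions became 30, 35 and 18 without replicate 2 and 27, 24 and 20 without replicate 3, with 837 and 838 for the mean. Replicate 1 is where PRKCZ differed least between the arms; its part in these counts was not tested. Between 24 h and 8 h, 148 in siPKCiz came to 25 to 84 without replicate 2 or 3 at 8 h or replicate 1 or 2 at 24 h, and 443 in siControl came to 189 to 288 without any one of its 6 arrays. For siPKCiz at 8 h they fell to 668 without replicate 1 of that group and to 691 without replicate 1 of its untreated cells, and at 24 h to 1096 and 1240 in the same way. Of 2676 recomputed values of the factors, 54 lost and 34 gained a call, and 62 changed sign, none of them called in either fit. Levels near the array median, 156.1 to 160.7, limit TWIST1 (163 to 261 over all arrays) and SNAI1 in untreated siControl cells (157 to 196). The hairpins lay below that median. No background level was measured.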

Other observations

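Replicate 1 of siControl at 24 h was the lowest of its 3 arrays for SNAI1, SNAI2, ZEB1, TCF3 and TCF4, which is 5 of the 8 factors. It was the lowest for 39% of all genes and for 61.5% of the 1075 genes called higher at 24 h in siControl. Those genes were called from these same arrays. Of the 1075, replicate 1 was also the lowest of its group for 61.2% in untreated siControl and 54.3% in untreated siPKCiz. At 8 h replicate 1 was the lowest for 25% in siControl and 24.7% in siPKCiz, and at 24 h in siPKCiz for 14.5%. Replicate 1 of untreated siPKCiz was the highest of its 3 for 6 of the 8 factors and the lowest for 2. It was the lowest for 42.5% of all genes, and the share for which it was the highest was not counted. The order is thus not shown to be particular to the factors. No cause of these orders was tested.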
